A study of Homo sapiens with 6 samples.

Results

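The distal end of chromosome 7, beyond 120 Mb, was examined gene by gene in SW480, an established human colon cancer cell line, after knockdown of ALDH1B1. Its members were all genes on chromosome 7 with a start of at least 120 Mb in the deposited table, a symbol at a single locus and a mean of at least 0.7 RPM (read counts scaled to the sequencing depth) over the 6 samples. The rule gave 185 genes of the 15451 tested, and the other 544 tested single-locus genes of chromosome 7 served as the comparison. Strand-specific libraries of total RNA were sequenced from 3 samples with the genotype ALDH1B1 KD (replicates 4, 5 and 6 of the knockdown) and 3 with the genotype WT (replicates 4, 5 and 6 of the control, named SCR), all with treatment none. The labels do not say how the knockdown was made, nor whether the samples of a group came from separate cultures or 1 clone, so the spread between them may be technical.

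The region was chosen by its fold changes between these same knockdown and control samples. Every fold change and call below is therefore a description of the region and no test of it. Rose and fell mark genes past an adjusted p of 0.05 in limma over all 15451 genes. Positions are those of the table, whose build is not named.

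Neighbouring genes on a chromosome mostly have unrelated functions, but they share the copy number and the large-scale chromatin of the segment that carries them. The distal long arm of chromosome 7 carries well-known genes of several pathways. Among them are the hedgehog ligand SHH and the hedgehog signal transducer SMO, the MAPK pathway kinase BRAF, the Polycomb methyltransferase EZH2 and a cluster of KRAB zinc-finger genes. The copy number of the segment was not measured in the files used here, and in bulk RNA fewer cells of a type and less RNA per cell cannot be told apart.

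Of 303 symbols in the region, 277 had a single locus, and 92 of these lay below the level threshold. The other 26 symbols had a second copy on a patch sequence and were left out by the rule. Of those, 13 passed the level threshold, with 9 that rose, 0 that fell and a median log2 fold change of 0.48. They included the ephrin receptor EPHB6, which went from 30.7 ± 4.76 to 61.9 ± 4.59 RPM (SD, n = 3), and the imprinted gene MEST, with 40.3 ± 3.53 and 45.8 ± 1.09 RPM (SD, n = 3), which was not called. RefSeq lists 142 members as protein-coding, and 24 symbols, all clone names, had no match.

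Promoters are shown for the 3 largest rises and the 3 largest falls among protein-coding members with a mean of at least 3.5 RPM and a single promoter entry, because these genes mark the extremes of the region in both directions. Each is the 250 bases before the RefSeq start (GRCh38.p14 coordinates, which differ from those of the table), read 5′ to 3′ on the gene's strand. Capitals mark matches to 5 motifs, searched on both strands, and a base can belong to overlapping matches. The letters GGGCGG stood for the SP1 motif and CCGGAAGT for that of ETS factors. The E-box was read as CACGTG, while the TATA box was searched as TATAAA, and the palindromic NRF1 motif was also searched. The rises are the first 3 and the falls the last 3. Of the rises, RARRES2 and EPHA1 reached the mean of 3.5 RPM only through the knockdown, with control means of 1.87 and 2.78 RPM.
RARRES2 (chr7:150341630-150341879, strand -): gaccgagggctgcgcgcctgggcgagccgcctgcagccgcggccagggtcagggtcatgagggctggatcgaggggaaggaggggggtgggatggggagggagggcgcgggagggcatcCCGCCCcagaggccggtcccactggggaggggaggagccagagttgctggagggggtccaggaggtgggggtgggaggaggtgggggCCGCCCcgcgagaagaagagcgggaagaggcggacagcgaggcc
EPHA1 (chr7:143408857-143409106, strand -): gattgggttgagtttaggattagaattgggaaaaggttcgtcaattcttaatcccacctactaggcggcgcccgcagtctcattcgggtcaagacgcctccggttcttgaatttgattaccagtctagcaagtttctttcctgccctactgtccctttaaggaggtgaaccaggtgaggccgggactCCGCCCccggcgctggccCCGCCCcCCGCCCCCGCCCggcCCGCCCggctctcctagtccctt
TSPAN33 (chr7:129144457-129144706, strand +): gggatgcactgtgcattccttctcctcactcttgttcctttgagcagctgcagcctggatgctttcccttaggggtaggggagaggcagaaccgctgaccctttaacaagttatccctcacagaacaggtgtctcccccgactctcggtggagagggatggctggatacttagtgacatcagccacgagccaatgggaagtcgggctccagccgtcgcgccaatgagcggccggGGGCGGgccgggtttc
UBE3C (chr7:157138676-157138925, strand +): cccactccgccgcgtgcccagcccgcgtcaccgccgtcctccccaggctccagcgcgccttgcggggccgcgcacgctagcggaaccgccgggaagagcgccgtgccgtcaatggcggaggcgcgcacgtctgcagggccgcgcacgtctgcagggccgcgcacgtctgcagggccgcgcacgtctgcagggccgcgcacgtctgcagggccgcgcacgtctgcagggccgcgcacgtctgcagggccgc
DNAJB6 (chr7:157336754-157337003, strand +): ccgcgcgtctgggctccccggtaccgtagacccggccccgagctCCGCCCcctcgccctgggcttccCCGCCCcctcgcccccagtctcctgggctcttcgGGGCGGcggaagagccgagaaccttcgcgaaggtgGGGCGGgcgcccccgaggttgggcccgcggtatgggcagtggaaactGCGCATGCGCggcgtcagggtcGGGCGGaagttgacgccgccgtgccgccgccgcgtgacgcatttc
LMBR1 (chr7:156893184-156893433, strand -): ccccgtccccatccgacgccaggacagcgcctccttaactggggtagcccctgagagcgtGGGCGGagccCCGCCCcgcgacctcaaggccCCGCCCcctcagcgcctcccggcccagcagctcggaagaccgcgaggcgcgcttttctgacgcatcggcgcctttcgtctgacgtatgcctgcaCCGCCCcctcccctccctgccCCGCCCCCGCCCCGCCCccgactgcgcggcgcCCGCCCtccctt

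The GC content of these windows was 59.2% to 74.8% for the rises and 75.2% to 78.0% for the falls. GGGCGG occurred on either strand in 5 of the 6 windows and was lacking in that of UBE3C. Over the full promoter entries of 300 bases, which run past the start, 62% of the 205 belonging to 134 members held GGGCGG, against 45% of all 35116 promoters of the same length. The shares for the other motifs were 3.90% and 4.14% for ETS, 9.27% and 7.26% for the E-box, 3.41% and 11.5% for the TATA box, and 2.44% and 1.24% for NRF1. The member promoters were also richer in GC, with a median of 64.4% against 58% and of 19 against 11 CG pairs. All 35116 promoters were taken without a level threshold. Whether the shares differ from those of other expressed genes was therefore not tested. A match is a description of the letters only.

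ALDH1B1, the targeted mitochondrial aldehyde dehydrogenase on chromosome 9, checked the labels. It had 34.1, 39.6 and 36.7 RPM in control replicates 4, 5 and 6 and 19.99, 20.4 and 23.2 RPM in the knockdown replicates, with no overlap (log2 fold change -0.80, SE 0.0925, limma adjusted p = 2.38e-07). An exact two-sided permutation test gave p = 0.1, the smallest possible with 3 against 3. Sequencing depth, read from the step between low values, was about 20360000 to 28580000 reads. Across all genes control replicate 6 sat lowest, with a median deviation of -0.10 log2 units from the control mean. The epithelial keratins KRT8, KRT18 and KRT19 were at 766 RPM or more in every sample, KRT20 at 0.196 RPM or less, and the leukocyte marker CD14 and the endothelial marker VWF at 0.996 RPM or less. Of the fibroblast markers COL1A1 was at 3.78 to 6.65 RPM and PDGFRB at 0.379 RPM or less. Some epithelial markers moved with the groups. CDH1 was at 9.86 to 15.6 RPM in the control and 45.4 to 54.96 RPM in the knockdown. In the same order EPCAM was at 101 to 116 and 204 to 210 RPM, and VIL1 at 5.44 to 6.50 and 20.5 to 23.0 RPM. KRT18 was at 1800 to 1978 and 2036 to 2284 RPM. CDX2 went the other way, at 52.3 to 57.3 and 28.5 to 35.2 RPM, and the ranges of KRT8 and KRT19 overlapped. The part of these markers in the values below was not tested.

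Most members were higher in the knockdown. Of the 185, 115 rose (62.2%), 9 fell (4.86%) and 61 were not called, against 22.7% that rose and 19.3% that fell among all genes tested (41.9% called in either direction). On the rest of chromosome 7, 190 of 544 genes rose (34.9%) and 42 fell (7.72%). The median log2 fold change was 0.41 over the members, a fold of 1.33, against 0.16 over the rest of the chromosome and 0.00035 over all genes. All 3 knockdown values lay above all 3 control values for 123 members, and below them for 15 (26.5% and 24.6% of all genes tested). Most shifts were small, with quartiles of 0.17 and 0.69 for the log2 fold change. Of the 185 members 27 rose by at least 1 log2 unit, against 31 of 544 on the rest of the chromosome and 718 of all 15451 genes.

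**Figure D1:**
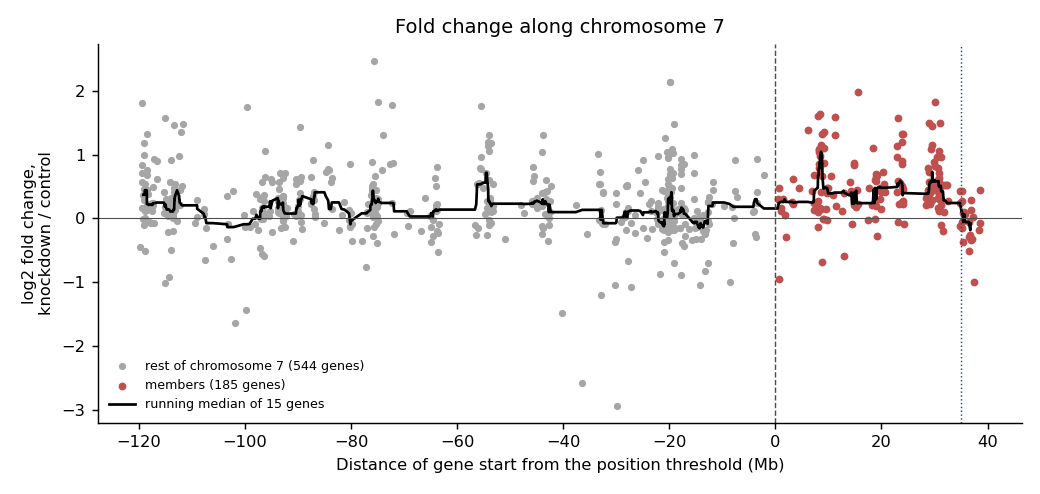
Each point is a gene of chromosome 7, placed by the distance of its start from the position threshold in Mb (x axis) and by its log2 fold change, knockdown against control (y axis), with members in red, the rest of the chromosome in grey, a running median of 15 genes, and a dotted line 35 Mb beyond the threshold. The running median stays above 0 over the members up to that line and drops to about 0 or below past it.

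The shift was present in each knockdown library. The members held 16.3%, 16.2% and 16.3% of all chromosome 7 RPM in control replicates 4, 5 and 6, and 18.3%, 18.4% and 18.3% in the knockdown replicates. The groups, at 16.2% ± 0.0209 and 18.3% ± 0.0846 (SD, n = 3), did not overlap. This share is a ratio within a library, so the scaling between libraries does not enter. Control replicate 6 was the lowest control sample for 127 members (68.6%) and for 65.4% of the rest of the chromosome. Without it the median log2 fold change of the members was 0.36.

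The shift was not even along the region. In bins of 5 Mb the median log2 fold change was 0.24 over the 12 members nearest the threshold, then 0.57, 0.42, 0.30, 0.51, 0.45 and 0.51 up to 35 Mb beyond it. In the end stretch, the 21 members 35 Mb or more beyond the threshold, it was -0.058. In that stretch 2 members rose (9.52%) and 6 fell (28.6%), against 22.7% and 19.3% of all genes tested, whose median was 0.00035. In the 164 members before it 113 rose (68.9%) and 3 fell (1.83%). The split at 35 Mb was chosen after the values were seen. The first 35 Mb and the end stretch also moved in opposite directions as shares of chromosome 7 RPM, from 12.5% ± 0.0242 to 15.2% ± 0.0801 and from 3.70% ± 0.0409 to 3.11% ± 0.00456 (SD, n = 3), with no overlap in either.

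**Figure D2:**
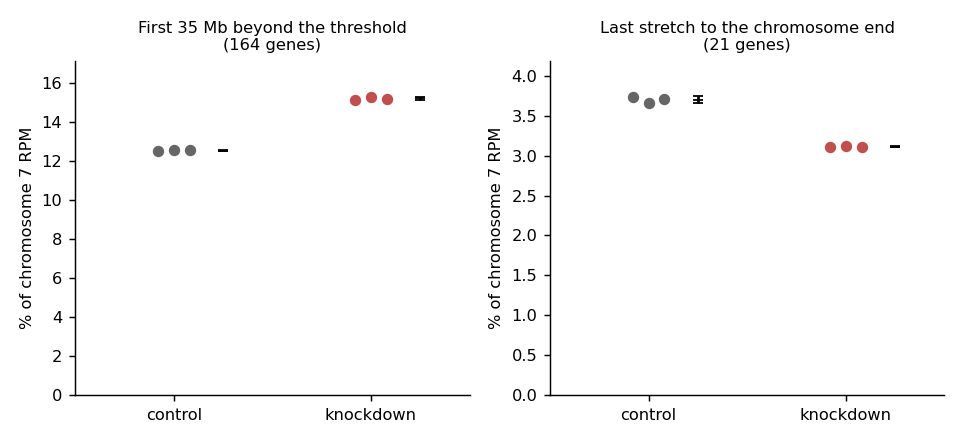
Share of all chromosome 7 RPM (y axis, %) held by the 164 members in the first 35 Mb beyond the threshold (left) and by the 21 members past that point (right), 1 point per sample, with mean and SD beside the points. The left share is 12.5% in the control and 15.2% in the knockdown, and the right share 3.70% and 3.11%.

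**Figure D3:**
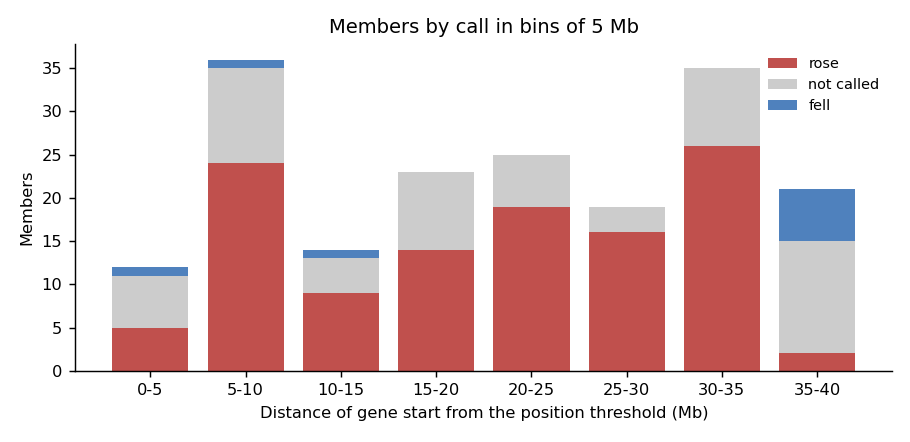
Number of members (y axis) that rose, fell or were not called in bins of 5 Mb from the threshold (x axis). Genes that rose are the largest class in every bin from 5 to 35 Mb, while the last bin has 2 that rose and 6 that fell.

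The longest run of neighbours with a positive log2 fold change held 43 genes, from 148.394 to 151.217 Mb, of which 38 rose and 0 fell, with a median of 0.56. It takes in CUL1, the cullin scaffold of SCF ubiquitin ligases, EZH2, the zinc-finger cluster, KCNH2 and SMARCD3, and ends with RHEB, the GTPase that activates mTORC1. Every other run of positive values among the members was shorter.

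At the position threshold, the last 4 genes outside it, CAPZA2, ST7-AS1, ST7 and NAA38, had log2 fold changes of 0.41, 0.93, 0.24 and 0.68. The first 4 inside it, TSPAN12, ING3, CPED1 and WNT16, had 0.30, 0.48, -0.95 and 0.16. The threshold thus does not mark a step between neighbours. At the level threshold, ATP6V0A4 and RP4-545C24.1 lay just inside with means of 0.750 and 0.855 RPM. RP11-38M8.1, LRRC4 and POT1-AS1 lay just outside with 0.668, 0.659 and 0.635 RPM. ATP6V0A4 passed only through the knockdown, with means of 0.498 RPM in the control and 1.003 RPM in the knockdown. It counts among the members that rose (1.10), a call lost in 6 of 14 alternative fits.

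Among members with a mean of at least 3.5 RPM, most of the 12 largest rises came from genes of low or moderate level. That mean is over both groups, so the ranking favours genes low in the control and high in the knockdown. Control means were below 3.5 RPM for AC015987.2 (2.09), RARRES2 (1.87), CCDC136 (2.45), EPHA1 (2.78), RP4-800G7.2 (2.47) and SSPO (2.18). RARRES2, which encodes the chemoattractant chemerin (150035408 to 150038764), had 2.13, 2.32 and 1.15 RPM in control replicates 4, 5 and 6 and 6.22, 6.24 and 6.42 RPM in the knockdown, a log2 fold change of 1.82 (SE 0.210). EPHA1, an ephrin receptor tyrosine kinase (143087382 to 143105986), had 3.04, 3.04 and 2.25 against 7.46, 8.74 and 8.41 RPM (1.57, SE 0.158). SMARCD3, a subunit of SWI/SNF chromatin remodellers (150935850 to 150974983), had 8.68, 7.48 and 6.16 against 17.9, 21.1 and 23.4 RPM (1.49, SE 0.127). In each of these the groups were far apart, and the knockdown samples differed among themselves by less than the distance between groups.

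PODXL, the sialomucin podocalyxin (131185021 to 131242977), stood out by its level. Its control values were 41.0, 42.8 and 34.1 RPM and its knockdown values 86.8, 98.99 and 105.4 RPM, a log2 fold change of 1.31 (SE 0.0913). IRF5, an interferon regulatory factor, rose by 1.15, the tetraspanin TSPAN33 by 1.33, the coiled-coil gene CCDC136 by 1.64 and the zinc-finger gene ZNF862 by 1.15. The remaining 4 of the 12 largest above that mean are the clone-named loci AC015987.2 (1.98) and RP4-800G7.2 (1.49), SSPO (1.45), the SCO-spondin locus and a transcribed pseudogene in RefSeq, and CTAGE4 (1.20), which has near-identical copies nearby and may share reads with them. AC015987.2 lies within the span of MTPN on the opposite strand, and whether the counting used strand is not stated. RP4-800G7.2 lies almost wholly within the span of ZNF783 on the same strand, so these genes may share reads.

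The falls were smaller and 6 of the 9 lay in the end stretch. DNAJB6, an HSP40 co-chaperone that keeps proteins from aggregating (157128075 to 157210134), had 159, 158 and 155.2 RPM in the control and 123, 124.3 and 129.9 RPM in the knockdown, a log2 fold change of -0.32 (SE 0.0715). UBE3C, a proteasome-associated ubiquitin ligase (156931607 to 157062067), had 132, 144 and 121 against 99.8, 105.4 and 108 RPM (-0.34, SE 0.0782). LMBR1, a membrane protein gene whose intron carries the limb enhancer of SHH, had 135, 129 and 116 against 107, 97.8 and 107 RPM (-0.28, SE 0.0778). These are among the members with the most reads, and every knockdown value lay below every control value. The LMBR1 call was lost in 1 of 15 alternative fits.

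NOM1, a nucleolar protein, fell by 0.26 and C7orf13 by 0.50 on the log2 scale. The low-level AC005481.5, with 1.19, 1.47 and 1.74 RPM in the control and 0.522, 0.835 and 0.879 RPM in the knockdown, had -0.996. All 3 lie in the end stretch, and the AC005481.5 call was lost in 2 of 14 alternative fits. AC005481.5 also lies within the span of PTPRN2 on the opposite strand, so the same doubt about strand applies. NCAPG2, a condensin II subunit, had -0.18 (SE 0.0773) with no overlap but was not called. In the same stretch WDR60, a dynein-2 subunit of cilia and the last member before the chromosome end, rose by 0.45, and CNPY1 rose by 0.28. The CNPY1 call was lost in 9 of 15 alternative fits. The other 3 falls, CPED1 (-0.95), RP11-286H14.4 (-0.68, lost in 2 of 15 alternative fits) and AC083873.4 (-0.58), were scattered among genes that rose.

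**Figure D4:**
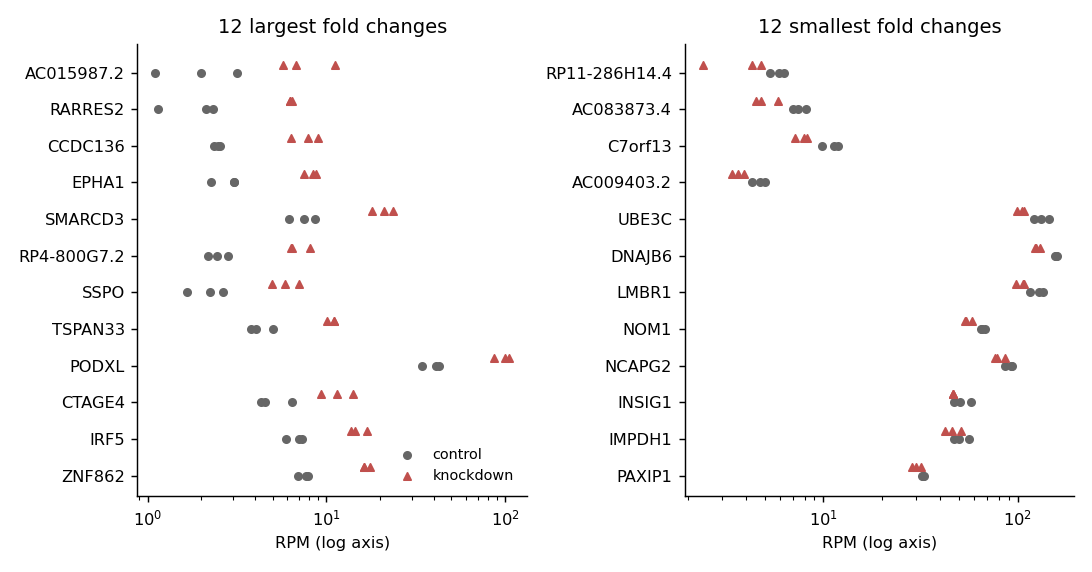
RPM in each sample (x axis, log scale) of the 12 members with the largest (left) and the 12 with the smallest log2 fold changes (right) among members with a mean of at least 3.5 RPM, with circles for the 3 control and triangles for the 3 knockdown samples. The groups are apart in all 12 genes on the left, and in every gene on the right except IMPDH1, where distances are smaller.

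By known role, members were placed in 12 lists drawn up with the earlier results of this contrast in view, and 61 belonged to none. Each list's counts stand beside 62.2% of members that rose, 4.86% that fell and a median of 0.41 over the region. Whether any list differs from the region was not tested. Median member means were 5.66 RPM for receptors and secreted factors, but 52.7 RPM for RNA, nuclear transport and genome maintenance genes. The part of level in the list medians was not tested. The list named for receptors and secreted factors had the highest median, 0.97 over 9 members with 5 that rose and 0 that fell. That median is the value of CRYGN, a crystallin gene that the name of the list does not describe. PODXL, TSPAN33, RARRES2, the crystallin gene CRYGN and the glutamate receptor GRM8 (1.38) rose, while SHH, FAM3C, TSPAN12 and WNT16 were not called. The hedgehog transducer SMO rose from 4.92 ± 1.01 to 10.5 ± 0.881 RPM (SD, n = 3), a log2 fold change of 1.11 (SE 0.145). The ligand SHH, which lies in the end stretch, had 50.4 ± 9.07 and 53.7 ± 2.17 RPM, with 55.6, 55.6 and 39.9 RPM in control replicates 4, 5 and 6 (0.11, SE 0.101), and its groups overlapped. Without control replicate 6 the SHH value turned to -0.05.

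All 8 members of the list of ion channels and transporters rose, with a median of 0.58. TMEM139, a membrane protein gene, had 25.1, 24.2 and 23.6 RPM in the control and 53.7, 53.3 and 52.7 RPM in the knockdown (1.13, SE 0.0818), a small spread in both groups. The anion exchanger SLC4A2 rose by 0.30, the nucleotide-sugar transporter SLC35B4 by 0.56, SLC37A3 by 0.41 and the potassium channel KCNH2 by 0.60. ASIC3, TMEM176A and TMEM176B rose by 0.80, 0.59 and 0.58 from control means of 0.984, 1.69 and 1.77 RPM, and their calls were lost in 6, 6 and 7 of 14 alternative fits.

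In the zinc-finger cluster 11 of 12 members rose and 0 fell, with a median of 0.52. ZNF862 and ZNF767 rose by 1.15 and 1.09, ZNF775 by 0.82, ZNF425 by 0.78 and ZNF783 by 0.72. ZNF282, ZNF398, ZNF746, ZNF786, ZBED6CL and ZNF212 rose by 0.27 to 0.58, and ZNF777 had 0.23 (SE 0.103) without a call. RefSeq lists ZNF767 and ZBED6CL as transcribed pseudogenes. The calls of ZNF282 and ZNF786 were lost in 6 and 2 of 15 alternative fits. Zinc-finger genes are related in sequence, so reads may be split between copies.

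Among chromatin and transcription genes 10 of 16 rose (62.5%) and 0 fell, with a median of 0.40, close to the share and median of the whole region. EZH2, the catalytic subunit of Polycomb repressive complex 2, had 63.2, 60.4 and 56.0 RPM in the control and 75.2, 74.0 and 82.0 RPM in the knockdown (0.36, SE 0.0792). REPIN1, HIPK2, KDM7A and UBN2 rose by 0.44, 0.67, 0.48 and 0.69. The H3K4 methyltransferase gene KMT2C (0.10), PAXIP1 (-0.11), NRF1 (-0.01), TRIM24 (0.20), EN2 (-0.05) and MNX1 (0.14) were not called, and of these EN2 and MNX1 lie in the end stretch.

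Signalling genes rose in 8 of 11 cases, with a median of 0.38 and 0 that fell. BRAF, the RAF kinase of the MAPK cascade (140419127 to 140624565), had 19.3, 18.0 and 18.6 RPM in the control and 26.7, 27.1 and 24.9 RPM in the knockdown (0.49, SE 0.0913), with no overlap. RHEB rose by 0.28, the Arf GTPase regulator AGAP3 by 0.71, the kinase CDK5 by 0.38 (lost in 3 of 15 alternative fits) and ADCK2 by 0.72. The AMPK subunit gene PRKAG2 had 0.21 (SE 0.102) and the receptor phosphatase PTPRN2 0.02 (SE 0.0801), neither of them called.

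In the list named for mitochondria 7 of 10 members rose and 0 fell, with a median of 0.29. It also holds 3 genes whose proteins mainly work elsewhere, the tRNA methyltransferase gene METTL2B (0.27, rose), the nuclear envelope gene TMEM209 (0.39, rose) and the endothelial nitric oxide synthase gene NOS3 (0.16, not called), and of the other 7 members 5 rose. NDUFB2 and NDUFA5, subunits of respiratory complex I, rose by 0.54 and 0.26, the mitochondrial ribosomal protein gene MRPS33 by 0.41 and FASTK by 0.57. The NDUFA5 call was lost in 6 of 15 alternative fits. CHCHD3, a cristae-organising protein, had 0.11, and the lysine-degrading enzyme AASS 0.05. Of 9 metabolic enzymes and regulators 5 rose and 0 fell, with a median of 0.43. AOC1, the diamine oxidase that degrades histamine, rose from 21.9 ± 2.60 to 42.4 ± 3.001 RPM (SD, n = 3), by 0.96, whereas INSIG1, which holds the sterol sensor in the endoplasmic reticulum, and IMPDH1, of guanine nucleotide synthesis, had -0.15 and -0.14. GSTK1, a glutathione transferase outside the lists, rose from 29.1 ± 3.62 to 56.6 ± 2.17 RPM (SD, n = 3), by 0.97.

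Genes of the endoplasmic reticulum, vesicles and protein turnover had 12 of 17 that rose, 2 that fell and a median of 0.41. PDIA4, a disulfide isomerase, had 122, 115 and 104 RPM in the control and 152, 154 and 159.8 RPM in the knockdown (0.45, SE 0.0764). The vesicle GTPase ARF5 rose by 0.68, the proton pump subunits ATP6V1F and ATP6V0E2 by 0.41 and 0.50, and CUL1 by 0.21, a call lost in 6 of 15 alternative fits. CALU had 0.17 without a call, and the 2 that fell were UBE3C and DNAJB6. Cytoskeletal and exocytosis genes rose in 8 of 12 cases and fell in 0, with a median of 0.25, among them STRIP2 by 1.10, EXOC4 by 0.41 and WASL by 0.23 (lost in 5 of 15 alternative fits), while zyxin (ZYX), caldesmon (CALD1) and ESYT2 had -0.06, -0.08 and -0.08. The lowest of the list was CADPS2, a regulator of vesicle exocytosis, with 3.57 ± 0.302 and 2.90 ± 0.209 RPM (SD, n = 3) and no overlap (-0.30, SE 0.173), which was called in quantile normalization alone.

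RNA, nuclear transport and genome maintenance genes had the lowest median, 0.16, with 5 of 18 that rose and 2 that fell. XRCC2, which acts in homologous recombination, had 39.7, 39.2 and 36.1 RPM in the control and 54.4, 55.8 and 55.0 RPM in the knockdown (0.52, SE 0.0801). CASP2, the telomere protein gene POT1, PARP12 and LUC7L2 also rose, by 0.41, 0.48, 0.30 and 0.64, and the calls of PARP12 and LUC7L2 were lost in 8 and 3 of 15 alternative fits. LUC7L2 lies within the read-through gene C7orf55-LUC7L2, which had 0.20 without a call, so its value is uncertain, and its groups overlapped. SND1, NUP205, ZC3HAV1, TNPO3 and RBM33 had 0.13, 0.17, -0.00159, 0.15 and 0.08 without a call, and the 2 that fell, NOM1 and LMBR1, lie in the end stretch. LMBR1 encodes a membrane protein, so it has no known role of the kind the list is named for.

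**Figure D5:**
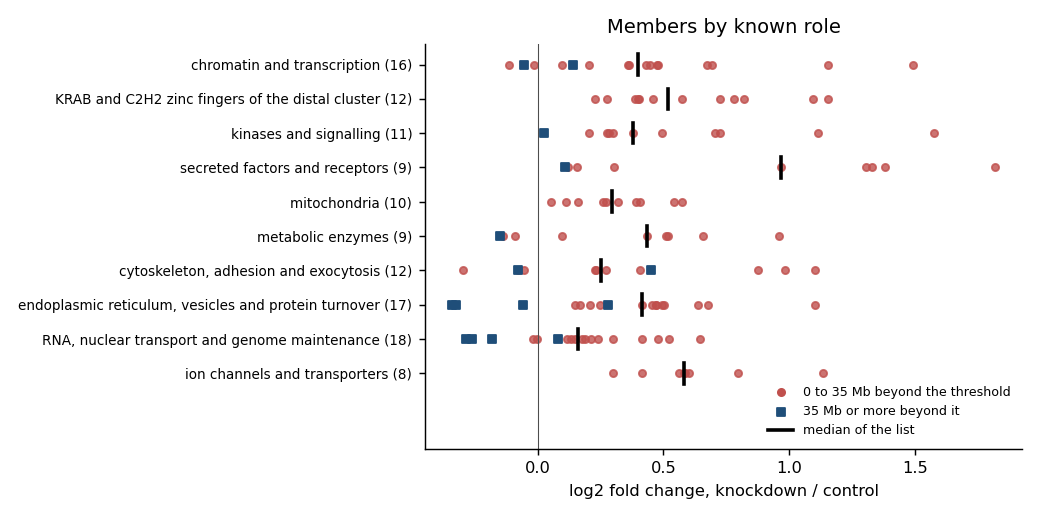
Log2 fold change (x axis) of each listed member by known role (y axis, number of members in brackets), for the 10 lists with more than 1 member. Circles lie within 35 Mb of the threshold, squares past it, and bars mark list medians, which run from 0.16 to 0.97.

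The imprinted list had 1 member, CPA4, with 0.48 (SE 0.217) and no call. The row named MIR29A rose by 0.66 (SE 0.129), with 15.1, 12.2 and 18.8 RPM in the control and 27.4, 24.96 and 20.1 RPM in the knockdown. It spans 36576 bases in the table against a RefSeq hairpin of 64 bases, so it reports a long transcript, and no mature miRNA sequence is tied to it.

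In 19 pairs of members on opposite strands with starts within 2000 bases, both rose in 9 and 0 had opposite calls, and the median absolute difference in log2 fold change was 0.40. In 21 pairs that overlap on opposite strands both rose in 7 and 0 had opposite calls, with a median absolute difference of 0.62. Of all members 62.2% rose and 4.86% fell, and whether such pairs differ from other members was not tested. ZNF425 and ZNF398, 69 bases apart, rose by 0.78 and 0.39, and CDK5 and SLC4A2 rose by 0.38 and 0.30. TMEM176B and TMEM176A were nearly equal at 0.58 and 0.59. NRF1 (-0.01, not called) and RP11-448A19.1, which rose by 0.86, start 83 bases apart.

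By level, the median log2 fold change was 0.58 over 33 members with a mean of 0.7 to 3.5 RPM, 0.64 over 41 from 3.5 to 10, 0.41 over 48 from 10 to 30 and 0.27 over 63 of at least 30 RPM. The rest of chromosome 7 gave 0.27, 0.28, 0.18 and 0.10 in the same classes, lower than the members in each. In the members before the end stretch the medians were 0.59, 0.80, 0.41 and 0.38, which differ from the medians over all members most in the class from 3.5 to 10 and that of at least 30 RPM. RPM is not scaled to gene length, so these classes mix level and length. Members on the plus and minus strands had medians of 0.45 and 0.37.

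Regions with a similar shift were described on 2 other chromosomes, from the same 6 samples. On chromosome 2 from 0 to 130 Mb 415 of 582 genes rose (71.3%), with a median of 0.46, and on chromosome 3 from 0 to 70 Mb 220 of 369 rose (59.6%), with a median of 0.38. The rest of chromosomes 2 and 3 had medians of -0.09 and -0.12, below 0, whereas the rest of chromosome 7 had 0.16. In 10 Mb bins before 120 Mb the medians on chromosome 7 ran from -0.07 to 0.30, and none reached the pooled median of the members. In like bins from 120 Mb they were 0.42, 0.41, 0.50 and 0.29. The last of these thus lay just below the highest bin outside the region, that from 60 to 70 Mb. Whether the 3 regions differ was not tested, since all 3 were chosen on this contrast.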

How the data were processed

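RNA of 3 ALDH1B1 knockdown and 3 control samples of SW480 cells was sequenced, and the authors deposited 1 table of log2 values per gene and sample. As far as the numbers show, these are log2 of RPM to which 0.0001 was added. The submitters' processing notes name Partek, Bowtie and hg38, without saying how reads were counted. Of 156 members found in GENCODE 29 (GRCh38), 0 had the table's start or end, so the table's own coordinates are given.

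Each symbol entered once. All genes reaching the level threshold of 0.7 RPM were fitted in limma 3.58.1 (R 4.3.3, lmFit, eBayes with trend, two-sided, Benjamini-Hochberg over 15451 genes, no covariates), and the fit was tested on simulated data. Low values were whole multiples of 1 read (tolerance 0.02 reads) in 74.2% to 76.1% of cases, so no count model was run. A read was worth 0.0350 to 0.0491 RPM. Sequences are from RefSeq (GRCh38.p14), and figures were drawn with matplotlib 3.10.9.

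The members, lists and alternatives were chosen with earlier results of these data known. Genes named were ALDH1B1, the 12 largest and 12 smallest log2 fold changes with a mean of at least 3.5 RPM, the 10 most abundant members, those nearest the thresholds and up to 6 per list by mean. Others, such as AC005481.5, WDR60, SMO, GSTK1 and XRCC2, were named after their values were seen. Some genes that the naming rule or the marker lists hold are not reported here.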

Additional observations from a re-analysis of the deposited data

How the results depend on the processing

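The counts of members that rose or fell and the median kept their direction under other level filters, offsets of 0.1 and 1, median of ratios, quantile normalization, other variance priors, a replicate block, other position thresholds and leaving out each sample. Against 115 that rose and 9 that fell, median of ratios gave 9 more that rose and 11 that fell, quantile normalization 113 and 13, and a start of at least 130 Mb 86 and 7, where fewer genes count. Leaving out each replicate in turn gave 100 to 111 that rose, 8 to 10 that fell, medians of 0.36 to 0.43, a gain in the share of chromosome 7 RPM of 2.04 to 2.13 percentage points, and ALDH1B1 log2 fold changes of -0.86 to -0.74. With the replicate block 104 rose and 9 fell. The labels do not say whether same-numbered samples were prepared together. Their deviations from the group means did not go together (correlations -0.05, -0.06 and -0.12). With 3 samples per group these correlations cannot settle whether they were paired. The gain in share, 2.09 percentage points, was 1.60 with members starting at 130 Mb or later. The split 35 Mb beyond the threshold was added after seeing the data. It gave 3 that fell before it, and 2 that rose with a reversed median of -0.058 past it. That median was -0.11 to -0.04 over all fits. Adding the 13 symbols with patch copies, also after seeing the data, gave 9 more that rose. No named member changed sign where called, while 20 lost their call in at least 1 alternative and 16 gained one. In the lowest members 3 reads, 0.105 to 0.147 RPM, limit the precision.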
